A study of Homo sapiens with 14 samples.

Results

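The comparison set SW620 cells carrying an activation library and grown for 20 days in 0.5 µM oxaliplatin against SW620 cells with the same library grown for 20 days without drug, 2 of the 14 libraries of the series. All 56762 guides of the library were taken, and they were summarised over the 18886 genes they are directed at and 496 non-targeting guides. SW620 is an established human colorectal carcinoma line. The cells in all activation libraries used here expressed dCas9-VP64 and carried the Calabrese guide library after blasticidin and puromycin selection. The untreated cells therefore differ from the treated ones in the drug alone, as far as the labels say. A day 0 library and a day 20 library at 0.38 µM oxaliplatin come from the same screen and served for comparison. The day 20 libraries of the SW620 knockout screen, at 0.5 µM and untreated, were used for SLC43A1 alone. Each condition is 1 library with no replicate, so nothing below was checked against the spread between cultures.

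In an activation screen, dCas9-VP64, a Cas9 that cannot cut joined to a transcriptional activator, is led by a guide to a promoter and raises transcription of the gene there. A guide whose gene helps cells to survive or divide makes up a larger share of the culture at the end, and a guide whose gene harms them a smaller one. Oxaliplatin is a platinum drug that binds DNA bases and links them within and between strands. Cells meet it with export and thiol conjugation of the drug, repair of the lesions, arrest of the cell cycle and, where damage is too great, apoptosis.

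The measurement is the count of each guide amplified from genomic DNA, scaled for library depth. The log2 fold of a guide is that of its scaled count plus 5 in 1 library over the other, and a gene's value is the median over its guides, with the lowest and highest guide in brackets. Genes were called by size or by rank. A gene was past the fold when all its tested guides lay on 1 side of 0 and their median was at least 2-fold (1 on the log2 scale), which involves no test. The guide-rank test (robust rank aggregation over a gene's guides) gives a p adjusted by Benjamini-Hochberg over all 18763 genes tested and called below 0.10. It compares 2 libraries and not 2 conditions.

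SLC43A1, the large neutral amino acid transporter LAT3 and the gene the series is named for, was among the genes whose guides were most depleted. Activation guides bind upstream of the start of transcription, so the 250 bases before the annotated start are shown for SLC43A1 and for genes of both directions treated below: TMEM171 and ZNF800, whose guides were enriched, and MYT1, whose guides were depleted. The sequences are RefSeq's for GRCh38.p14, read 5′ to 3′ on the strand of the gene, with CG dinucleotides in capitals. They lie at chr11:57515703-57515952 (minus strand), chr5:73120325-73120574 (plus), chr7:127392709-127392958 (minus) and chr20:64164202-64164451 (plus). The deposited tables number the guides, and the guide sequences were not used here, so no target site is marked.
SLC43A1: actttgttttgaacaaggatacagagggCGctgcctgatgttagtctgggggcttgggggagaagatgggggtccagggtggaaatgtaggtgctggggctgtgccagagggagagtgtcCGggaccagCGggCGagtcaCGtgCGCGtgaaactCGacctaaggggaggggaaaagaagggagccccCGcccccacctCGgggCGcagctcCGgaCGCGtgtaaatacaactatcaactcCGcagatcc
TMEM171: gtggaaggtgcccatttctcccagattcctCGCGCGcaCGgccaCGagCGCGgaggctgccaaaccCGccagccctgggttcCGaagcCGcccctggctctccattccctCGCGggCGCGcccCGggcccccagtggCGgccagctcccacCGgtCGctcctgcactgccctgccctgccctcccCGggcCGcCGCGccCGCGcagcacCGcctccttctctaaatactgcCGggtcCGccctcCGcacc
ZNF800: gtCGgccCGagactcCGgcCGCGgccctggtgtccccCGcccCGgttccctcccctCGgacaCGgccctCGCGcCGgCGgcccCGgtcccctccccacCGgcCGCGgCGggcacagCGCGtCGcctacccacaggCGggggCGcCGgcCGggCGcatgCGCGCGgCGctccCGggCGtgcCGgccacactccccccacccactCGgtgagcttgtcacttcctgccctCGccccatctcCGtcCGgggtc
MYT1: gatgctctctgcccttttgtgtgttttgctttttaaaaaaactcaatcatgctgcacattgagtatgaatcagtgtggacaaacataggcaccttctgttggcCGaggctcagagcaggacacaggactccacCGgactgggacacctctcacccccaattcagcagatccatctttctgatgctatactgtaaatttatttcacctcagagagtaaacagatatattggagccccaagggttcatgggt
The SLC43A1 window holds 15 CG, near the median of 18 over the 14238 tested genes whose promoter was matched. Those of TMEM171 and ZNF800 are dense in CG, with 28 and 37, and that of MYT1 holds only 2. The median was 17 for the 765 matched genes past the fold upwards and 18 for the 947 downwards.

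The libraries differed in depth and in how evenly guides were spread. The untreated library held 3647823 counts, with a median of 62 per guide, and the 0.5 µM library held 11898882, with a median of 138. Day 0 and 0.38 µM held 22152626 and 26141162 counts. At 0.5 µM, 2248 guides (3.96%) had fewer than 10 counts, against 381 (0.671%) in the untreated library, and 394 had 0 counts against 46. The top 1% of guides held 10.2% of the counts at 0.5 µM, 7.20% at 0.38 µM and 2.43% without drug. At 0.5 µM, 9528 guides held 50% of all counts, against 19263 without drug. Guides were therefore far less even after the drug, and low counts were present on both sides of the comparison.

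Non-targeting guides, which have no gene to activate, give the spread without a target. Their log2 folds at 0.5 µM over untreated had a median of 0.01 and an SD of 1.09 over 495 guides, which is 4.97 times the SD of 0.219 that counting alone gives. From day 0 to untreated day 20 the same SD was 0.33. Targeting guides spread more widely at 0.5 µM, with an SD of 1.45, and 15.8% of them lay beyond 2 in either direction against 6.46% of non-targeting guides. A log2 fold of 3 or more was reached by 658 targeting guides (1.18%) and by 0 non-targeting guides. A fold of -3 or less was seen for 1938 targeting guides (3.46%) and 5 non-targeting guides (1.01%).

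Most of these extreme guides stood alone in their gene. Of the 636 genes with a guide at 3 or more, 618 (97.2%) had just 1 such guide. The guides with the largest rises whose gene had a median below 1 were directed at CD72, a receptor of B cells (6.82), OR51B4, an olfactory receptor (6.53), TYK2, a Janus kinase (6.18), ZNF540 (5.62) and ENOPH1, an enzyme of methionine salvage (5.53). In these genes the median over guides was 0.68, 0.24, 0.83, 0.65 and -1.91. In 0.38 µM over day 0 the same 5 guides had log2 folds of -0.64, -0.15, -0.50, 0.27 and -1.16, so none of them was as high there. The guide with the most counts at 0.5 µM, 33411, is directed at RNF122, whose other guides lay far lower (median 0.59, range -0.70 to 4.63).

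Over genes, 1001 of 18763 (5.33%) were past the fold upwards and 1250 (6.66%) downwards at 0.5 µM over untreated day 20. With counts scaled by library totals in place of the median ratio, these counts became 243 and 3156, since that scaling moved the median of all genes by -0.52. By the guide-rank test 8 genes (0.0426%) were enriched and 2 (0.0107%) depleted. At an unadjusted p under 0.05, 971 and 948 genes were found, near the number that random guide ranks would give.

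The 8 genes enriched by the guide-rank test were ZNF296, PRDM1, ETS1, TMEM171, ZNF800, MSX1, ZP2 and RNF223. PRDM1, ETS1 and MSX1 encode transcription factors, ZNF296 and ZNF800 zinc finger proteins, RNF223 a ring finger protein, TMEM171 a membrane protein and ZP2 a protein of the egg coat. In untreated day 20 over day 0 the median of ZP2 was -0.35, that of TMEM171 -0.81 and those of the other 6 genes lay between -0.90 and -2.55.

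ZP2 had the highest median of these. Its 3 guides had scaled counts of 160, 190 and 142 in the untreated library and of 29036, 8426 and 1918 at 0.5 µM. All guides were enriched, but unequally: the ratios were 181 (95% counting interval 139 to 241), 44.4 (34.7 to 57.7) and 13.5 (10.1 to 18.4). The median log2 fold was 5.43 (3.71 to 7.46), with an adjusted p of 0.0475 in the guide-rank test. At 0.38 µM the first 2 guides were high as well, with 2404 and 8361, and the third was low, with 12.7 against 101 at day 0.

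TMEM171 was enriched with all its guides at both doses. Its guides had scaled counts of 80.8, 154 and 113 at day 0 and 47.5, 77.2 and 62.3 without drug. They had 3143, 1717 and 3038 at 0.38 µM and 3429, 2421 and 1602 at 0.5 µM, so the treated and untreated ranges do not come near each other. The median log2 fold was 4.88 (4.58 to 6.03; adjusted p = 0.0229, guide-rank test). Over day 0 it was 3.93 at 0.5 µM and 4.69 at 0.38 µM.

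The guide-rank test compares each guide with guides of similar mean count. When guides were compared with guides of similar untreated count instead, TMEM171 and ZP2 passed again, and genes that had not passed before did so, among them GSTP1, RNF24 and C9. None of the other 6 genes passed in that setting.

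Apart from ZP2, the 8 genes had few untreated counts, TMEM171 included (63 over its guides, against 65 for ZNF800, 64 for MSX1 and 57 for ZNF296). The 3 guides of ZNF296 had 23, 9 and 25 raw counts without drug, and 810, 161 and 398 at 0.5 µM (median 2.78, range 2.74 to 3.87, adjusted p = 0.0066). PRDM1 was tested with 2 guides, which had 5 and 1 counts without drug and 363 and 87 at 0.5 µM, while guide 3 had 1 and 0. The 2 guides passed the count filter only through the 0.5 µM library, and guide 3, which did not rise, fell out. RNF223 was also tested with 2 of its 3 guides, and all its guides held 14 counts without drug and 296 at 0.5 µM. With so few untreated counts, at least 1 of its tested guides passed the count filter only through the 0.5 µM library. Without the count filter PRDM1 passed again and RNF223 did not. Over the deeper day 0 library the medians of all but ZP2 and TMEM171, given above, were 1.66 for ZNF296, 1.71 for PRDM1, 1.38 for ETS1, 1.64 for ZNF800, 1.82 for MSX1 and 1.16 for RNF223.

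ETS1 had scaled counts of 11.9, 59.3 and 23.7 without drug and of 453, 364 and 84.3 at 0.5 µM. Its guides had started at 87.6, 137 and 86.6 at day 0, so guide 3 at 0.5 µM was near its day 0 level. MSX1 was uneven, with guide 3 at 107 without drug and 194 with it. In 0.38 µM over day 0, the medians of ZNF296, PRDM1, ETS1, ZNF800, MSX1 and RNF223 were 1.24, 0.29, 1.14, 1.38, 1.71 and 1.60. The guides of MSX1 (-2.52 to 3.35) and PRDM1 (-0.13 to 0.97) lay on both sides of 0 there. With day 0 as the control 0 genes passed upwards in the guide-rank test and 3 (0.0160%) downwards. An unadjusted p under 0.05 was seen there for 1001 and 993 genes, again near the number that random guide ranks would give. With the mean of both controls 0 passed upwards. At 30 or more raw counts in the untreated library ZP2 passed, and it was the only gene of the 8 still tested. That filter left all the others with too few guides, among them TMEM171, whose guides had 16, 26 and 21 untreated counts. The part of the fold that comes from a low untreated count in 1 shallow library was not tested.

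Of the next genes by guide-rank p, ARNTL2, a circadian clock factor (2.18), GLOD4 (2.49), PAX5, a B cell factor (2.49) and CLVS2 (2.23) did not pass (adjusted p = 0.141 to 0.207). These 4 were at -1.24, 0.36, -2.38 and 0.24 in 0.38 µM over day 0. PAX5 was at 0.09 over day 0, where its low untreated counts play no part.

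On the depleted side MYT1 and METAP2 passed. MYT1, a zinc finger transcription factor of neural cells, had scaled counts of 460, 264 and 487 without drug and of 34.3, 11.9 and 3.95 at 0.5 µM. All 3 guides were lower than in any other library, and at 0.38 µM they lay in between, at 108, 44.4 and 40.2. The median log2 fold was -4.00 (-5.78 to -3.57), with an adjusted p of 0.0030 in the guide-rank test. Over day 0 it was -3.87 at 0.5 µM and -2.32 at 0.38 µM.

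METAP2, an aminopeptidase that removes the first methionine of new proteins, rested on unequal guides. Their scaled counts were 546, 383 and 169 without drug and 383, 100 and 1.32 at 0.5 µM, so the first guide was little lower and the third nearly gone. The median was -1.88 (-4.78 to -0.50; adjusted p = 0.0257, guide-rank test), but 0.27 in 0.38 µM over day 0.

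The genes that followed did not pass. UBP1, a transcription factor, had scaled counts of 223, 234 and 199 without drug and of 21.1, 10.5 and 3.95 at 0.5 µM, with a median of -3.95. ATM, the kinase that signals double-strand breaks, had a median of -4.52 (-4.88 to -3.09), and 1 of its guides had 0 counts at 0.5 µM. That guide was at least 27.8-fold lower against a floor of 3 counts. The ATM median is the value of that guide, so it depends on the pseudocount. The adjusted p values of UBP1 and ATM in the guide-rank test were 0.291 and 0.392. In 0.38 µM over day 0 the UBP1 median was -2.82 and that of ATM -1.15, with 1 ATM guide at 0.15. PHACTR1 (-1.93), ALOX12 (-2.47, from 2 tested guides), PAIP2B (-2.09), DSCR3 (-3.98), LDHAL6B (-2.19), G0S2 (-3.79), SEMA4A (-1.44) and PLA2G4C (-2.36) had guide-rank adjusted p values of 0.291 to 0.67. In 0.38 µM over day 0 PHACTR1 (1.18), LDHAL6B (0.96), PAIP2B (0.94) and SEMA4A (0.71) lay on the other side of 0, and ALOX12, DSCR3, G0S2 and PLA2G4C were at -0.55, -0.19, -1.41 and -0.53.

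SLC43A1 guides were depleted to near 0 at both doses. They had 75, 25 and 62 raw counts without drug and 17, 0 and 2 at 0.5 µM. Day 0 held 415, 250 and 391 counts, and 0.38 µM 0, 4 and 0. The guide at 0 was at least 18.8-fold lower than without drug, and the others were 9.94-fold (95% counting interval 5.81 to 18.0) and 69.8-fold (18.5 to 589) lower. The 3 guides together were 19.2-fold lower (11.9 to 32.7). The median log2 fold was -3.99 (-4.63 to -3.05), a value of the guide at 0 that depends on the pseudocount, and the gene did not pass the guide-rank test (adjusted p = 0.76).

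In the knockout screen of the same line at 0.5 µM, guides against SLC43A1 moved the other way, with a median of 11.10 over 4 guides (10.62 to 11.57). Of all tested genes in the activation screen, 9 had a lower median than SLC43A1 at 0.5 µM, and 5 of these were past the fold.

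A further pair of libraries bears on these genes. The 0.38 µM library over day 0 shares no library with 0.5 µM over untreated day 20, though dose and time of growth differ between the pairs, and the labels do not say whether the cultures came from 1 transduction. Of the 1001 genes past the fold upwards at 0.5 µM, 95 (9.49%) were also past it in the other pair, where 3.40% of all genes were. Of the 1250 downwards, 134 (10.7%) were, against 4.77%. The sign was shared by 60.7% and 61.9%, and 21 genes in each direction were past the fold in the opposite direction. Across 18762 genes Spearman's rho between the 2 sets of medians was 0.137, a weak relation. It was 0.163 over targeting guides and 0.055 over 495 non-targeting guides.

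Ordered by the smaller of the 2 medians, a ranking chosen after the values were seen, SLC43A1 came first of the 134 depleted genes, with -3.99 and -5.28. BIK, a pro-apoptotic BH3-only protein, followed with -2.91 and -3.03, from 2 tested guides. NKX2-5, a heart transcription factor, had -2.91 and -2.91, UBP1 -3.95 and -2.82, OTC, a urea cycle enzyme, -2.81 and -2.76, and MFSD2A, a lysophospholipid transporter, -3.91 and -2.58. TP53BP1, which directs double-strand break repair, had -3.71 and -2.42. PAXIP1, a BRCT protein that acts with it, had -2.40 and -3.89. BMI1, a Polycomb protein, had -2.42 and -2.96, and SAMHD1, a deoxynucleotide triphosphatase, -2.38 and -4.23.

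The TP53BP1 guides had 436, 284 and 292 raw counts at day 0 and 64, 32 and 27 in the shallower untreated library. They had 67, 75 and 0 at 0.38 µM and 13, 2 and 1 at 0.5 µM. After scaling, all 3 guides were below both controls in both treated libraries, and the gene did not pass the guide-rank test at 0.5 µM (adjusted p = 0.87).

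Of the 95 enriched genes, TMEM171 came first, with 4.88 and 4.69. Further genes near the top of that order are given with both medians. RNF24, a ring finger protein, had 3.17 and 3.10, BEAN1 2.79 and 2.82, C9, a complement component, 2.98 and 2.74, and ADAMTS9, a secreted metalloprotease, 3.07 and 2.54. ETS2, a relative of ETS1, had 2.17 and 2.08, MT3, a metallothionein, 2.07 and 2.44, PITX1, a homeobox factor, 3.65 and 2.04, and ISX, an intestinal homeobox factor, 2.75 and 1.98. The RNF24 guides were all far higher with drug, with 148, 139 and 190 scaled counts without it against 5079, 1298 and 1640 at 0.5 µM. Other genes of the group were less even. Guide 3 of ADAMTS9 had 101 without drug and 142 at 0.5 µM, within counting error of no change. None of the genes named here after TMEM171 passed the guide-rank test at 0.5 µM.

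The 2 doses were compared directly as well. In 0.5 µM over 0.38 µM, 1307 genes (6.98%) were past the fold upwards and 1349 (7.20%) downwards, but 0 of 18731 genes passed the guide-rank test in either direction. An unadjusted p under 0.05 was seen for 920 and 967 genes, again near the number that random guide ranks would give. Non-targeting guides had an SD of 1.35 in that comparison, wider than for either dose over a control. DSCR3, a retriever subunit, differed widely: its guides had 9.22, 7.90 and 1.32 scaled counts at 0.5 µM but 96.2, 295 and 105 at 0.38 µM. TMEM171 differed little, by a median of 0.13.

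Genes were then described by role, from lists of named pathways. No member of any list passed the guide-rank test over all genes, so the counts below are of genes past the fold, to be read against 5.33% upwards and 6.66% downwards over all genes tested, whose median was 0.00. Among 368 olfactory receptors, taken as a background set, 16 (4.35%) were past the fold upwards and 26 (7.07%) downwards.

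Transport of the drug and of amino acids came first. Of 10 transporters of large neutral amino acids, 2 were past the fold downwards and 0 upwards, and the median was -0.62. These 2 were SLC43A1 and its relative SLC43A2, or LAT4. SLC43A2 had scaled counts of 157, 175 and 240 without drug and of 115, 14.5 and 17.1 at 0.5 µM, so that its first guide was within counting error of no change; the median was -3.21. Its median in 0.38 µM over day 0 was -1.47. SLC7A5, or LAT1, was at -1.10 with guides on both sides of 0 (-2.76 to 1.19).

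Of 25 other amino acid transporters, SLC7A11, the cystine importer that feeds glutathione synthesis (1.32), and SLC1A1, a glutamate transporter (1.19), were past the fold upwards, and SLC38A2, a glutamine transporter (-2.64), downwards. These were at 1.61, -0.06 and -1.06 in 0.38 µM over day 0, where the SLC7A11 guides lay on both sides of 0 (-0.63 to 1.98). Of 25 genes of platinum and drug transport, 3 were upwards and 5 downwards, around a median of -0.03. ATP7B, a copper exporter, had the highest median, 2.05 (1.73 to 2.15), but 0.16 in 0.38 µM over day 0. SLC22A3, an organic cation transporter (-2.35), SLC47A1, a cation exporter (-2.11), and SLC31A2, of the copper transporter family (-1.60), were lowest; the other pair of libraries had -2.93, -1.28 and -0.11.

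Genes of glutathione, of the oxidant-responsive factor NRF2 and of metallothioneins held 9 of 33 members (27.3%) past the fold upwards and 2 downwards, with a median of 0.52. GSTP1, a glutathione transferase, had 151, 249 and 190 scaled counts without drug and 3469, 2722 and 1375 at 0.5 µM. All its guides were enriched, by a median of 3.42 (2.82 to 4.47), and in 0.38 µM over day 0 the median was 1.63. The guide-rank test gave GSTP1 an adjusted p of 0.97 against guides of similar mean count and of 0.0098 against guides of similar untreated count. MT3 (2.07), CUL3, the ubiquitin ligase scaffold that works with KEAP1 (1.91), and GCLC, the catalytic subunit of glutathione synthesis (1.79), followed, and were at 2.44, 1.32 and 1.73 in the other pair of libraries. MT3 was past the fold there. GCLC was not, and neither was CUL3, whose guides lay on both sides of 0 (-0.89 to 1.92).

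NFE2L2 and KEAP1, 2 regulators of the pathway, were past the fold downwards, while CUL3, which works with KEAP1, was past it upwards. NFE2L2, which encodes NRF2, was at -1.89 (-4.54 to -1.34) and at -1.95 in the other pair. KEAP1, which holds NRF2 in check, was at -1.22 and -0.38 there. In the other pair the median of the list was 0.19. Metallothioneins and GSTM genes have near-identical neighbours, so the target of such a guide is uncertain.

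DNA repair lists held members past the fold in both directions. Of 22 genes of nucleotide excision repair 3 were up and 3 down (median 0.56), with RPA3 lowest (-2.52). XPC, which finds lesions across the genome, was at -1.62 from 2 tested guides, and RAD23B, its partner, at -1.51. UVSSA, GTF2H1 and GTF2H5 were at 1.05, 1.03 and 1.02. XPC was past the fold in the opposite direction in 0.38 µM over day 0, at 1.40, RAD23B was at 0.83 and RPA3 at -0.58, and the 3 others were at 0.59, 0.77 and -0.15. Of 21 Fanconi anaemia and crosslink repair genes 3 were up and 3 down (median 0.34): BRIP1, a helicase, was at -2.33, FANCL, the ubiquitin ligase of the core complex, at -1.88, and UBE2T, its ubiquitin-conjugating enzyme, at 1.46. None of these 3 was past the fold in the same direction in 0.38 µM over day 0 (-0.53, -0.82 and 0.10).

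Of 18 homologous recombination genes 4 were up and 0 down (median 0.19). EXO1 and RBBP8, which resect DNA ends, were at 1.71 and 1.55, and at 1.04 and 1.09 in the other pair. Guides of both genes lay on either side of 0 there (-0.22 to 1.49 for EXO1 and -2.92 to 1.29 for RBBP8). BLM (1.05) and RAD51C (1.02) were at -0.22 and -0.89 in that pair. Of 13 translesion synthesis genes only REV1 was past the fold (-1.03), against 1.22 in the other pair.

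Of 16 genes of the ATR and replication checkpoint, 1 was past the fold in each direction and the median was -0.60. CDC25A, the phosphatase that removes the block on CDKs, was at 2.97 (1.65 to 3.59). Its guides had 77.2, 139 and 160 scaled counts without drug and 983, 1130 and 515 at 0.5 µM, all clearly above. RAD17, which loads the checkpoint clamp, was at -2.61 from 2 tested guides (-3.93 and -1.30). In the other pair these medians were 1.49 and -2.24, and the CDC25A guides lay on both sides of 0 (-0.55 to 3.04). WEE1, the kinase that opposes CDC25A, had a median of -3.29 with 1 guide above 0 (-5.17 to 0.74) and is not counted.

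Among 25 CDK inhibitors and p53 pathway genes, 5 were down and 1 up, around a median of 0.25. TP53BP1 was lowest, and CDKN1A, the p21 inhibitor, followed with -2.73 from 2 tested guides. Their scaled counts were 86.1 and 77.2 without drug and 29.0 and 0 at 0.5 µM. CDKN2B, the p15 inhibitor, was at -2.08, and in the other pair CDKN1A and CDKN2B were at -1.82 and -2.01. TP53INP1 was at -1.23, and at -0.45 there. RBL2, which was up, was at 1.09 but -0.61 in the other pair. Of 21 cyclins, CDKs and proliferative transcription factors 2 were up and 0 down (median 0.09): CCND1 and CCND3, D-type cyclins, at 1.29 and 1.06. CCND1 was at 1.89 in the other pair, and CCND3 at 0.44.

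Pro-apoptotic genes held 6 of 23 (26.1%) past the fold downwards and 0 upwards, with a median of -0.68, and only 5 of the 23 were above 0. BID, which links death receptors to mitochondria, had 122, 89.0 and 122 scaled counts without drug and 22.4, 3.95 and 0 at 0.5 µM. BAK1, which opens the outer mitochondrial membrane, had 151, 53.4 and 62.3, and then 72.5, 3.95 and 3.95. All guides of both genes were lower, with medians of -3.39 and -2.71. BIK and FAS, a death receptor, were at -2.91 and -2.01.

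BCL2L11 (-1.30) and PMAIP1, only just past the threshold, were the other members. In 0.38 µM over day 0 the list's median was -0.37. Of the 6 members past the fold at 0.5 µM, BIK was at -3.03 there, BAK1 at -0.93, BID at -0.66, FAS at 0.01, BCL2L11 at 0.26 and PMAIP1 at 0.89. Of 10 anti-apoptotic genes 1 was down (BIRC5, or survivin, -1.21) and 0 up, with a median of 0.13; BIRC5 was at -0.10 in the other pair.

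Growth signalling lists held few members past the fold. Of 39 growth factor receptors and RAS-MAPK activators, 2 were up (FGF1, a fibroblast growth factor, 2.02; ERBB3, a receptor of the EGF receptor family, 1.31) and 3 down (HGF, the ligand of MET, -2.44; NTRK2 -1.21; FGFR2 -1.13). FGF1 was at 0.54 in the other pair, ERBB3 at -1.67, HGF at 0.06, NTRK2 at -2.93 and FGFR2 at -1.68, so ERBB3 lay on the opposite side and HGF near 0. Of 21 RAS-MAPK suppressors SPRY4 was down (-2.09; -1.89 in the other pair). Of 16 p38 and JNK kinases MAP3K4 and MAP3K7 were up (1.65 each) and MAP3K1 down (-1.07). In the other pair these 3 were at -0.81, -0.09 and -0.52, so neither of the first 2 was high there.

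Of 20 Hippo suppressors of YAP, VGLL4 (-2.46) and STK3 (-1.35) were down and WWC2 up (1.04, from 2 tested guides of 3). At 0.5 µM over day 0 the WWC2 guides lay on both sides of 0 (-2.74 to 1.14). Of 13 YAP and TEAD effectors, VGLL2 (1.45) and TEAD2 (1.42) were up. VGLL4 and STK3 were in the other pair at -0.33 and -1.09, but WWC2, VGLL2 and TEAD2 lay below 0 (-1.64, -0.51 and -0.50). Guides of VGLL4 (-1.86 to 1.45) and STK3 (-2.63 to 0.99) lay on both sides of 0 there. Of 20 mTORC1 suppressors DEPDC5 was up (1.58, and 0.35 in the other pair). Its highest guide had 0 untreated counts and passed the count filter only through the 0.5 µM library. Without that guide the DEPDC5 median was 0.84, short of the fold. At 0.5 µM over day 0 the DEPDC5 guides lay on both sides of 0 (-0.28 to 2.42). Of 24 mTORC1 activators RRAGA (-1.87) and PDPK1 (-1.39) were down and PIK3R1 up (1.82), with 0.60, -1.14 and -1.69 in the other pair. PIK3R1 turned to -0.72 with day 0 as the control, so its direction depended on the control. Over untreated day 20 its 2 tested guides were at 0.17 and 3.46.

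Of 40 Wnt pathway genes 3 were up (RSPO2 1.51, DKK4 1.42, FZD5 1.05) and 2 down (FZD7 -2.52, TCF7 -2.04). In the other pair the first 3 lay below 0 (-0.42, -0.77 and -0.26), and FZD7 and TCF7 were at -0.10 and -1.50. CTNNB1, which encodes beta-catenin, had a median of 2.12 with a guide below 0 (-0.74 to 3.32) and is not counted. Of 25 TGF-beta and BMP genes, INHBA (1.41) and TGFBR1 (1.15) were up and ACVR2A (-1.84) and SMAD4 (-1.79) down, and in the other pair SMAD4 alone kept its side (-0.63, -0.86, 0.80 and -0.52). Of 18 genes of the integrated stress response, ATF4, its main transcription factor, was up (1.64). EIF2AK2 (-1.91) and TRIB3 (-1.50) were down, each from 2 tested guides. ATF4 was at -0.60 in the other pair, EIF2AK2 at -4.67 and TRIB3 at 0.57.

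Transcription factors of gut and endoderm, which set the identity of intestinal cells, were past the fold in both directions: 5 of 25 (20%) were up and 4 (16%) down, around a median of -0.11. ISX had the highest median, 2.75 (2.20 to 2.86). Its scaled counts were 128, 59.3 and 125 without drug, 960, 427 and 592 at 0.5 µM, and 501, 485 and 669 at 0.38 µM, so all guides were high at both doses. CDX1 followed with 1.53, and GATA4 was lowest, at -2.53. In the other pair CDX1 and GATA4 were at -0.69 and 0.27. CDX2 was at -1.36 and SOX9 at 1.04, and both kept their side there (-1.29 and 1.65). Of 14 epithelial-mesenchymal factors PRRX1 was down (-1.30; -0.79 in the other pair).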

How the data were processed

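Guide cassettes amplified from genomic DNA were counted. The authors deposited whole-number counts per guide, and a second table whose signal is those counts times 1 constant per library, as a check of the values showed, by a method not given in the sources used here. Cutadapt 4.0 and MAGeCK 0.5.7 are named in the submitters' processing notes without their roles. All columns were mapped by name (0 left over). Of 18886 symbols 17939 are current, 862 older and 85 unmatched.

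Counts were scaled by median ratio over 4 libraries (Python 3.11.15, numpy 2.4.6, pandas 2.3.3, scipy 1.17.1; edgeR 4.0.16 gave TMM factors only). A pseudocount of 5 was added, and guides with a mean scaled count below 20 and genes with fewer than 2 such guides were left out. Folds were centred and scaled within 50 bins of mean scaled count, and ranked with rank shares up to 0.25, with an exact null for the aggregated rank, tested on simulated data. With 1 library per condition no test between conditions exists. Intervals (95%, exact conditional binomial) and the floor of 3 counts cover counting error only, since PCR reads are not independent molecules.

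Genes named are, per direction, the 12 past the fold with the smallest guide-rank p; SLC43A1; list members past the fold (at most the 4 with the largest medians, or the largest where none passed); and the 5 guides with the largest rise whose gene had a median below 1. Others were chosen after their values were seen: genes past the fold in both pairs, list members with lower ranks or not past the fold, and those in the closing section. The members and lists were chosen with earlier results of these data known. Alternatives changed the pseudocount, filters, scaling, control, bins, rank shares, guides per gene and fold threshold; scaling by the authors' constants was added after the data were seen. Some genes are not reported here.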

Additional observations from a re-analysis of the deposited data

How the results depend on the processing

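No paired analysis was possible because each condition has 1 library. Upward guide-rank calls, 8 as reported, were 2 with at least 30 untreated counts, 0 with day 0 as the control, 0 with the mean of both controls and 15 without standardising folds, where downward calls went from 2 to 0. With bins of the control count 1 gene passed upwards between the doses. Genes past the fold numbered 243 up and 3156 down under scaling by total counts (7.15% of calls upwards, against 44.5%), and 119 and 294 at a median of at least 2 (28.8% upwards); under the other settings they were within 1.5 times the reported counts. PIK3R1 turned to -0.72 with day 0 and -0.34 with the mean of both controls. The SLC43A1 median ran from -5.67 (pseudocount of 1) to -3.52 (without guide 3). MYT1 passed in 13 of 14 settings, ZP2 in 12 of 14, TMEM171 in 11 of 13, METAP2 in 10 of 14 and RNF223 in 6 of 12. Settings in which a gene was no longer tested are left out of its total. At least 30 untreated counts is such a setting for all of the 8 enriched genes except ZP2. All settings use the same libraries, so they are not independent checks. The untreated library is shallow, with a median of 62 counts a guide, and its part in the upward calls was not tested.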

Other observations

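EIF2AK2, which encodes the double-stranded RNA sensor PKR, had 466, 363 and 359 counts at day 0, 15, 4 and 19 without drug, and 29, 0 and 0 at 0.5 µM. Its median log2 fold was -2.22 in untreated day 20 over day 0 and -5.16 at 0.5 µM over day 0. At 0.5 µM over untreated it was -1.91 from 2 tested guides, of which the first did not differ beyond counting error (ratio 0.858, 95% interval 0.445 to 1.72). PSME2, an activator subunit of the proteasome, had -1.35 without drug and -2.71 at 0.5 µM, both over day 0, and SP100, a nuclear body protein, had -1.63 and -3.61. These genes were chosen after their values were seen, for that pattern, and do not stand for a group.

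UBE2G1, a ubiquitin-conjugating enzyme, had 90, 29 and 52 counts without drug and 51, 1 and 3 at 0.5 µM (median -3.85). It passed the guide-rank test downwards with day 0 as the control, with MYT1 and CCZ1B, but not over untreated day 20 (adjusted p = 0.858). CCZ1B has a near-identical copy in the genome, and its value is uncertain.

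MXI1, which opposes MYC by binding its partner MAX, was past the fold upwards in both pairs of libraries that share none (2.66 at 0.5 µM over untreated and 1.74 at 0.38 µM over day 0), with all 3 guides between 2.49 and 2.88 at 0.5 µM. MYC itself had a median of -2.82 with a guide above 0 (-2.88 to 0.08).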
